A study of Mus musculus with 8 samples.

Results

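The Gli transcription factors and the proteins that relay the Hedgehog signal to them were examined here through chromatin accessibility at 7 genes, Gli1, Gli2, Gli3, Smo, Sufu, Kif7 and Spop, of 21027 mouse protein-coding genes. A peak of open chromatin was given to the protein-coding gene nearest to its summit, within 100 kb. The 7 genes were chosen for their role in the pathway, with earlier results of these data known but no measured value in the rule. By this rule they held 83 of 65318 peaks in the D7 GLI1 OE list, 60 of 59488 in that of the D7 control and 45 of 48177 in that of the D5 control. ATAC-seq, which uses the Tn5 transposase to cut and tag accessible DNA, was run on cultured cardiac progenitor cells derived from mouse embryonic stem cells. The GLI1 OE cells were collected at day 7 (3 libraries) after 48 hours in 500 ng/ml doxycycline, which began at day 5 and induces overexpression of GLI1. Untreated control cells were collected at day 7 (3 libraries) and at day 5 (2 libraries). All groups carry the cell line name GLI1-FTA and the strain name A2Lox.cre, a mouse embryonic stem cell background built to take a doxycycline-inducible gene by Cre recombination. Doxycycline was given to the GLI1 OE cells and to neither control, so an effect of the drug and an effect of GLI1 cannot be told apart. The control list for D7 was recognised by its name, and its day is an inference.

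Each of the 3 lists pools the libraries of its group, so no list has a replicate, no difference below has a replicate check, and no p-value is given. The value printed for a peak is the authors' fold enrichment, a ratio of the reads over the summit to a background, which in each D7 list was 1 value for all peaks. In both D7 lists this fold moved in whole steps, from which the reads over each summit were recovered, and the 95% intervals given for folds and their ratios are exact intervals for those reads. They cover counting error only, not the spread between cultures. One step was 0.176 in the D7 GLI1 OE list and 0.180 in the D7 control list, and the weakest peak in either had 13 reads over its summit. The D5 list goes down to a fold of 1.42, against 2.46 and 2.52 in the D7 GLI1 OE and D7 control lists, so its folds are not set against D7 folds. Overlapping peaks of a list were joined into regions, 43043, 38771 and 39436 in the D7 GLI1 OE, D7 control and D5 control lists. All 10 cardiac progenitor markers had a region in every list, but so did 68.1%, 65.9% and 69.0% of all genes in the D7 GLI1 OE, D7 control and D5 control lists, and markers of other cell types did too, so this does not check the cell type label. In bulk samples a lower fold may mean fewer cells with the site open or less opening per cell, and these cannot be told apart.

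In the Hedgehog pathway the receptor PTCH1 holds the membrane protein SMO inactive until a Hedgehog ligand binds PTCH1. SMO then gathers in the primary cilium, and the Gli proteins are released from SUFU, the cytoplasmic protein that restrains them. KIF7 is a kinesin at the tip of the cilium that organises this step, and SPOP is an adaptor that hands Gli2 and Gli3 to a ubiquitin ligase. GLI2 is the main activator of target genes, GLI3 acts largely as a repressor after it is shortened by proteolysis, and GLI1 is an activator whose own gene is a standard readout of the pathway. In the embryo, Hedgehog signalling acts on progenitors of the second heart field that build the outflow and inflow ends of the heart.

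Promoter windows of RefSeq (GRCm38.p6, the mm10 build), 250 bases before to 50 after the gene start, were found for 6 of the 7 genes, all but Gli1. Of these, 3 are printed because the promoter comparison below turns on them: Smo and Gli3, whose folds differed most between the D7 lists and in opposite directions, and Sufu, whose folds were close. The fold compared is that of the strongest peak overlapping the window. For Gli3 its summit lay outside the printed window, at −506 bases from the gene start in GLI1 OE cells and −521 in D7 control cells. The Gli3 summit pair inside the window had folds of 36.3 in GLI1 OE cells and 52.0 in D7 control cells. The Smo window is chr6:29735247-29735546 on the plus strand, the Gli3 window is chr13:15463473-15463772 on the plus strand and the Sufu window is chr19:46396646-46396945 on the plus strand. Each is read 5′ to 3′ along the gene, and the capitals mark CpG dinucleotides.
Smo: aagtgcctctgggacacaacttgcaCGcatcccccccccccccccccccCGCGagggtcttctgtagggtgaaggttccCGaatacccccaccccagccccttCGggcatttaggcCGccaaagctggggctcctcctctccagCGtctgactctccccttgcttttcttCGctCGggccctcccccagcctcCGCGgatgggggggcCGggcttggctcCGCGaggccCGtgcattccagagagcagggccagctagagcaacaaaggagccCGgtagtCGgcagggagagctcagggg
Gli3: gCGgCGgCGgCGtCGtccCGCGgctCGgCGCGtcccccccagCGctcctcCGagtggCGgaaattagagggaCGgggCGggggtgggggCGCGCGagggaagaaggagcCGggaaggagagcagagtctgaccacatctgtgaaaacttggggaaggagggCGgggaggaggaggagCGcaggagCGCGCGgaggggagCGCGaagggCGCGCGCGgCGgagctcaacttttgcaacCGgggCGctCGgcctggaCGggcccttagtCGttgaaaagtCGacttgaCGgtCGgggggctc
Sufu: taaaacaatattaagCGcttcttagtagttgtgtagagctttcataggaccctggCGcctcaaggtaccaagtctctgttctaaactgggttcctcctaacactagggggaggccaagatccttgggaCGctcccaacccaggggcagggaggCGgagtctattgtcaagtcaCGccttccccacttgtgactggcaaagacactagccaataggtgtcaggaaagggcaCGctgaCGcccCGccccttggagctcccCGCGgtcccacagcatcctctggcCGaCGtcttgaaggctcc

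The 6 windows were rich in CpG or near the usual level. Gli3 had 39 CpG and 71% GC, Spop 37 and 73.7%, Kif7 31 and 74%, Gli2 28 and 67.3%, Smo 17 and 67.7% and Sufu 12 and 56.3%. The medians over 20462 promoter windows were 14 CpG and 57% GC, so Sufu was the one member below both. The Gli recognition sequence GACCACCCA, searched on both strands, was in none of the 6 windows, nor was its looser form GACCNCCCA, which includes the strict form. These letters were in 0.181% and 1.002% of all windows. No match says only that the letters are absent from these 300 bases.

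**Figure D1:**
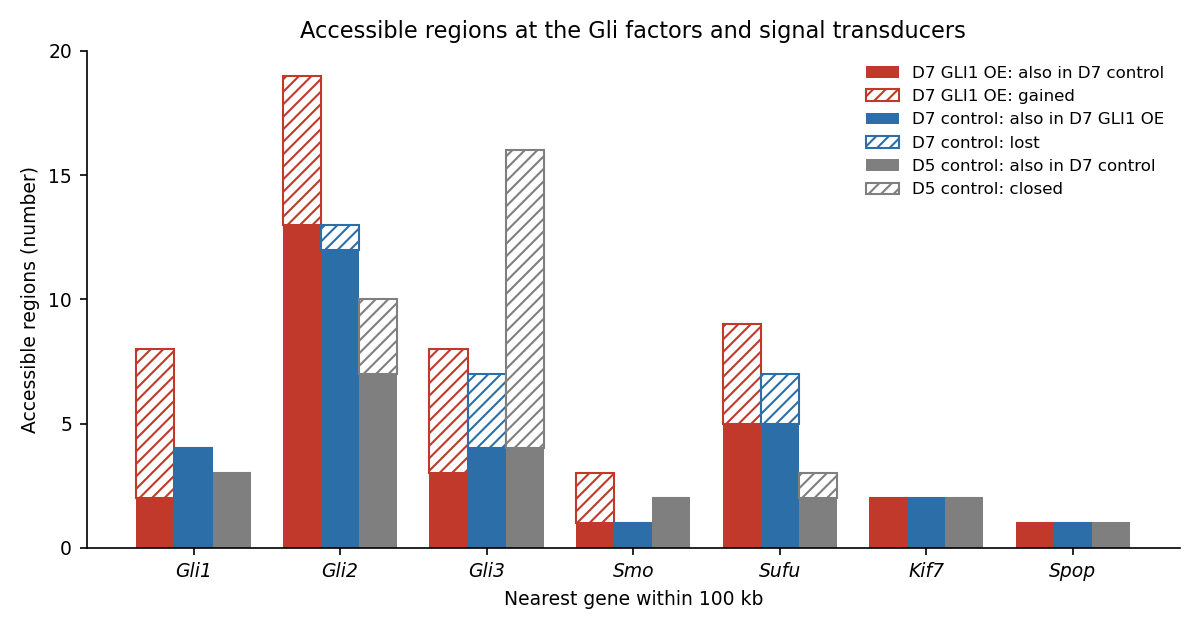
Number of accessible regions (vertical axis) nearest to each of the 7 genes (horizontal axis) in the pooled D7 GLI1 OE, D7 control and D5 control lists, 1 bar per list, with hatching for regions absent from the list compared (gained, lost or closed). Gli2 has 19, 13 and 10 regions and Gli3 has 8, 7 and 16, while Kif7 and Spop have the same number in all 3 lists.

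GLI1 induction was first compared with the untreated D7 culture by asking which regions were in 1 list only. The 7 genes held 50 regions in the D7 GLI1 OE list and 35 in the D7 control list. Of the 50, 23 had no overlap with a control region and are called gained, and of the 35, 6 had no overlap with a GLI1 OE region and are called lost. The gained share was 46% (exact 95% binomial interval 31.8 to 60.7%), against 39.0% of all regions of the D7 GLI1 OE list. Without Gli1 it was 40.5%, close to that background. The lost share was 17.1% (6.56 to 33.6%), against 31.6% of all regions of the D7 control list, a background inside the interval's range. When peaks were given to the nearest gene start in place of the nearest gene, 10 regions were gained and 3 lost. These are counts without a share, and over all genes the shares under this rule were again 39.0% gained and 31.6% lost.

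The genes differed in how they shared in these counts, as the bar plot of regions per gene shows. Gli1 had 6 gained and 0 lost regions, Gli2 6 and 1, Gli3 5 and 3, Sufu 4 and 2, and Smo 2 and 0. Kif7 had 2 regions and Spop 1 in each D7 list, all of them shared. Most gained regions were weak: the 17 at genes other than Gli1 had a median fold of 4.39, against 3.86 for the 16766 gained regions of all genes. Gained regions with a fold of at least 10 numbered 7 of 23 at the 7 genes (30.4%), against 3.83% of all gained regions. This level was chosen after the values were seen, so no interval is given. Of the 7 regions, 5 were at Gli1 and 2 at Gli3, so the share describes 2 genes and not all 7. Among the 468 genes with any such region, Gli1 and Ercc6l2 alone had 5.

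Marker genes of other cell types had regions in these lists too, and their part in the results at the 7 genes was not tested. Of 4 cardiomyocyte markers, 1 had a region in the D7 GLI1 OE list and 4 in the D7 control list. Tnnt2, Myh6 and Myl7 had 0, 0 and 0 regions in the D7 GLI1 OE list, against 1, 1 and 3 in the D7 control list. All 4 neural and all 3 endothelial markers had a region in every list, with 26 against 19 neural regions and 13 against 8 endothelial regions in D7 GLI1 OE against D7 control. The 3 endoderm markers held 19 regions in the D7 GLI1 OE list and 4 in the D7 control list, of which Foxa2 had 13 and 2, Sox17 6 and 2, and Afp 0 and 0. Nkx2-2 in the neural list and Foxa2 in the endoderm list are also in the list of known Hedgehog targets. The 4 pluripotency markers held 7 and 6, of which Nanog had 4 and 2, Esrrb 3 and 3, Zfp42 0 and 1, and Pou5f1 0 and 0. The 10 cardiac progenitor markers held 42 regions in the D7 GLI1 OE list and 42 in the D7 control list.

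Gli1 lies on chromosome 10 from 127329882 to 127341579, and regions of the D7 GLI1 OE list lay along most of its length. Reads from the induced GLI1 copy cannot be told apart from the cells' own Gli1 where the sequences are alike. Their part in the Gli1 values here and below was not tested. Regions of the D7 GLI1 OE list covered 62.1% of the gene, those of the D7 control list 25.4% and those of the D5 control list 6.35%. The difference of 36.8 percentage points between the D7 lists ranked 12 among 21027 genes and 1 among the 12852 genes at least as long. The next gene over 10 kb was Sp7, with 21.7 points. Overlap with neighbouring genes and the position of exons were not used here, so the regions are placed against the gene's interval only.

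The regions at Gli1 were separate stretches and not 1 block. Along the chromosome, the 8 regions of the D7 GLI1 OE list were parted by gaps of 413, 674, 51, 1480, 153, 95 and 1422 bases. The 6 gained ones began at 127330026, 127333507, 127333944, 127335878, 127336362 and 127336920, and their summits carried 64, 79, 52, 88, 60 and 109 reads. The weakest listed peak of the D7 control list had 13 reads, so these summits stood well above that level. None of the 6 overlapped a D5 region either.

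**Figure D2:**
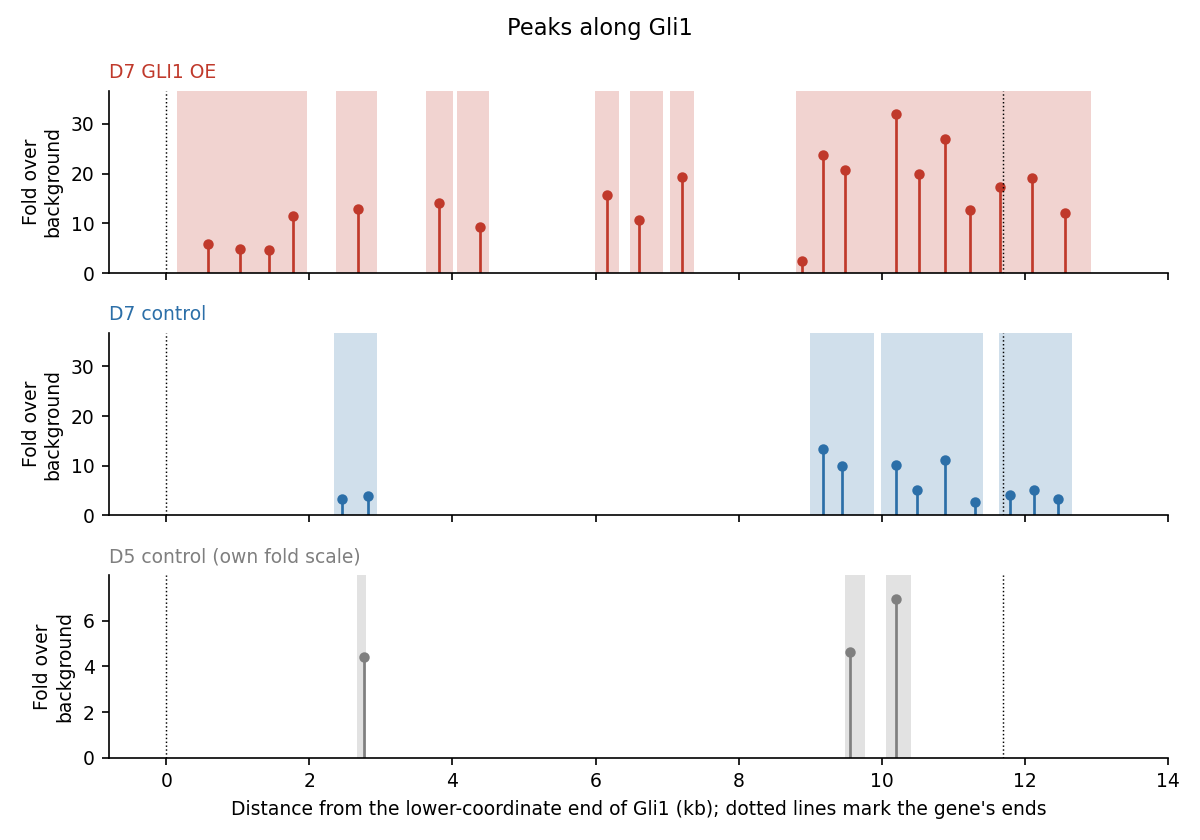
Accessible regions along Gli1 in 1 panel per list, with distance in kb from the gene's lower coordinate on the horizontal axis and the fold over background of each peak summit (stems) on the vertical axis. Shaded bands span the regions, dotted lines mark the gene's ends, and D5 has its own fold scale. The D7 GLI1 OE panel holds 8 regions, 6 of them gained, against 4 in the D7 control panel and 3 in the D5 control panel.

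The regions that Gli1 already had in control cells also differed in fold. At 127332258 to 127332832 the fold was 13.0 in GLI1 OE cells (73 reads) and 3.96 in D7 control cells (21 reads), a ratio of 3.28 (2.05 to 5.77) between summits more than 50 bases apart. The widest region, 4134 bases from 127338678 to 127342811, spanned 3 regions of the D7 control list and ranked 41 in width among 43043. It ran past the end of the gene's interval at 127341579. Its summit fold was 31.9 in GLI1 OE cells, against 13.3 for the strongest control region under it, a ratio of 2.40 (1.82 to 3.20). Both stretches also held the 3 D5 regions of the gene, which began at 127332545, 127339373 and 127339949.

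Gli1 also differed summit by summit, where the same position could be compared. Within that widest region, 6 summits lay within 50 bases of a control summit. Their folds were 23.7, 20.7, 31.9, 20.01, 27.0 and 19.1 in GLI1 OE cells, against 13.3, 9.90, 10.1, 5.22, 11.2 and 5.04 in D7 control cells. The last of these summits, at 127341985 in GLI1 OE cells, lay outside the gene's interval. The ratios ran from 1.78 to 3.83 with a median of 2.80, and 5 of the 6 reached 2. Over all 7 genes, 5 of 29 such pairs reached 2 (17.2%), against 3.08% of 27862 pairs over all genes. All 5 were neighbouring summits of this 1 Gli1 region, so the share describes 1 locus and no interval is given. The 23 pairs at the other 6 genes ran from 0.698 at Gli3 to 1.66 at Sufu. Reads from an induced GLI1 copy and reads from the cells' own Gli1 cannot be told apart in these lists where the sequences are alike, and the part of the induced copy in the Gli1 values was not tested.

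Gli2, on chromosome 1 from 118834061 to 119054405, had 19 regions in the D7 GLI1 OE list and 13 in the D7 control list, and 12 of those 13 overlapped a GLI1 OE region. Its balance of 5 more gained than lost regions was 1 with equal list lengths, 1 with the nearest gene start and 3 within 25 kb. At the promoter the fold was 27.4 in GLI1 OE cells (155 reads) and 30.8 in D7 control cells (170 reads), a ratio of 0.890 (0.707 to 1.11) whose interval includes 1. The 6 gained regions had folds of 2.81 to 6.14, at or below 34 reads, and 3 of them lay outside the gene. These 3 began at 118759603, 118824240 and 119106244, with folds of 5.44, 5.79 and 6.14. The lost region at 118878392 had a control fold of 3.60.

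Within Gli2, 1 shared region differed in fold by at least 2 times. It began at 119050224, with its summit 3.04 kb from the gene start, and had a fold of 6.67 in GLI1 OE cells and 2.88 in D7 control cells, a ratio of 2.32 (1.28 to 4.69). The control peak rested on 15 reads, and the summits of this pair were more than 50 bases apart, so the ratio compares regions and not 1 position. Another region, at 119047751, had folds of 13.3 and 9.90 in GLI1 OE and D7 control cells, a ratio of 1.35 (0.937 to 1.95) whose interval includes 1. At 118982127 the folds were 2.63 and 5.22 in GLI1 OE and D7 control cells, a ratio of 0.504 (0.236 to 0.952) that again compares summits over 50 bases apart. The same control summit had a GLI1 OE summit 34 bases away with a fold of 4.39, a ratio of 0.841 (0.461 to 1.49).

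Gli3, on chromosome 13 from 15463723 to 15730026, differed in both directions between the D7 groups: lower at the promoter and higher at several sites inside the gene. The promoter region had a fold of 54.1 in GLI1 OE cells (307 reads) and 69.5 in D7 control cells (385 reads), a ratio of 0.778 (0.663 to 0.901). A second summit of the same region, 26 bases apart between the lists, had folds of 36.3 and 52.0 in GLI1 OE and D7 control cells, a ratio of 0.698 (0.577 to 0.832). At 2 further summits downstream the ratios were 0.934 (0.688 to 1.25) and 0.908 (0.507 to 1.59), and both intervals include 1.

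Inside Gli3, 2 of the 4 gained regions were strong. The region from 15602522 to 15603588, 139 kb into the gene, had a fold of 20.2 (114 reads) in GLI1 OE cells and no region in D7 control cells. It had a D5 control region with a fold of 7.79, and was the 1 gained region of 23 that overlapped a D5 region (4.35%, 0.110 to 21.9%), against 13.5% of all gained regions. The region from 15624459 to 15625071 had a fold of 10.01 (56 reads) in GLI1 OE cells and none in either control. The remaining gained regions inside the gene, at 15544141 and 15662446, had folds of 6.49 and 4.39.

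A further Gli3 site was present in all 3 lists. The region from 15504548 to 15505357, 41.2 kb into the gene, had a fold of 14.2 in GLI1 OE cells (80 reads) and 4.86 in D7 control cells (26 reads), a ratio of 2.93 (1.90 to 4.84). Its summits also lay more than 50 bases apart between the D7 lists. The lost regions at 15441707, 15457913 and 15702868 had control folds of 3.24, 7.20 and 3.78, so the strongest of them lay 5.61 kb before the gene start. Regions covered 1.74% of Gli3 in the D7 GLI1 OE list and 0.729% in the D7 control list, and this difference ranked 3303 among 21027 genes and 5 among the 668 genes at least as long.

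**Figure D3:**
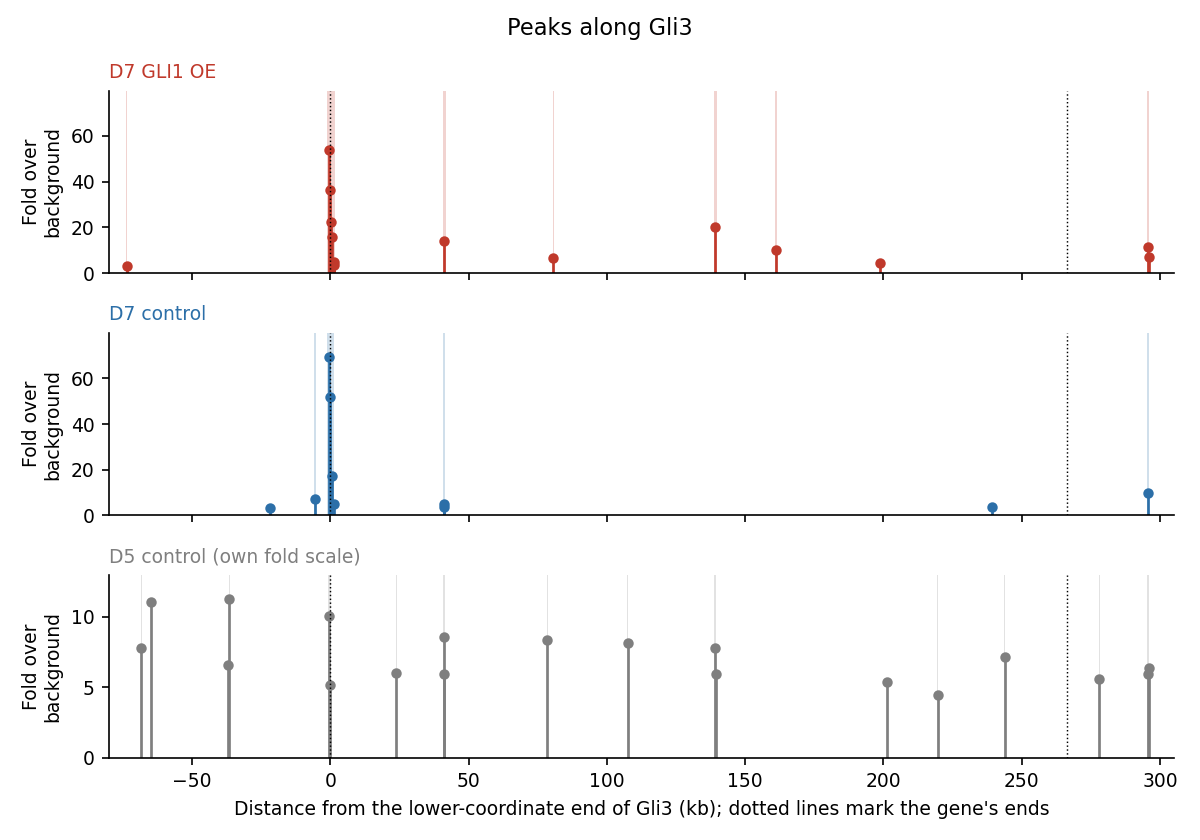
Accessible regions along Gli3 and within 100 kb of it in 1 panel per list, with distance in kb from the gene's lower coordinate on the horizontal axis and the fold over background of each peak summit (stems) on the vertical axis. Shaded bands span the regions, dotted lines mark the gene's ends, and D5 has its own fold scale. The D5 control panel holds 16 regions, against 8 in the D7 GLI1 OE panel and 7 in the D7 control panel, and the tallest D7 regions stand at the promoter (54.1 and 69.5).

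Among the 27 shared regions of the 7 genes, 4 had a fold at least 2 times higher in GLI1 OE cells (14.8%), against 3.96% of 26277 shared regions over all genes. They were the 2 at Gli1 and the 1 each at Gli2 and Gli3 described above, and none was at Smo, Sufu, Kif7 or Spop. Regions of 1 gene are not independent, so no interval is given for this share. Without Gli1, 2 of 25 shared regions were at least 2 times higher. No shared region was at least 2 times lower, against 10.6% of all shared regions, and the interval for 0 of 27 reached 12.8%. Each GLI1 OE region was set against the strongest control region that it overlapped. Several weak GLI1 OE regions over 1 strong control region can thus each count as lower, so the higher and lower shares are not symmetric and 10.6% does not measure loss. With single peaks in place of joined regions, 6 were at least 2 times higher and 9 at least 2 times lower, counts for which no share over all genes is given. There each GLI1 OE peak was set against the strongest control peak over its summit, so side summits could meet a main summit. Where summits lay within 50 bases, 5 of 29 pairs at the 7 genes reached 2, all of them at Gli1, and the lowest ratio was 0.698. The median ratio was 1.02 over the 27 shared regions and 0.890 over the 25 outside Gli1, against 1.05 over all shared regions.

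**Figure D4:**
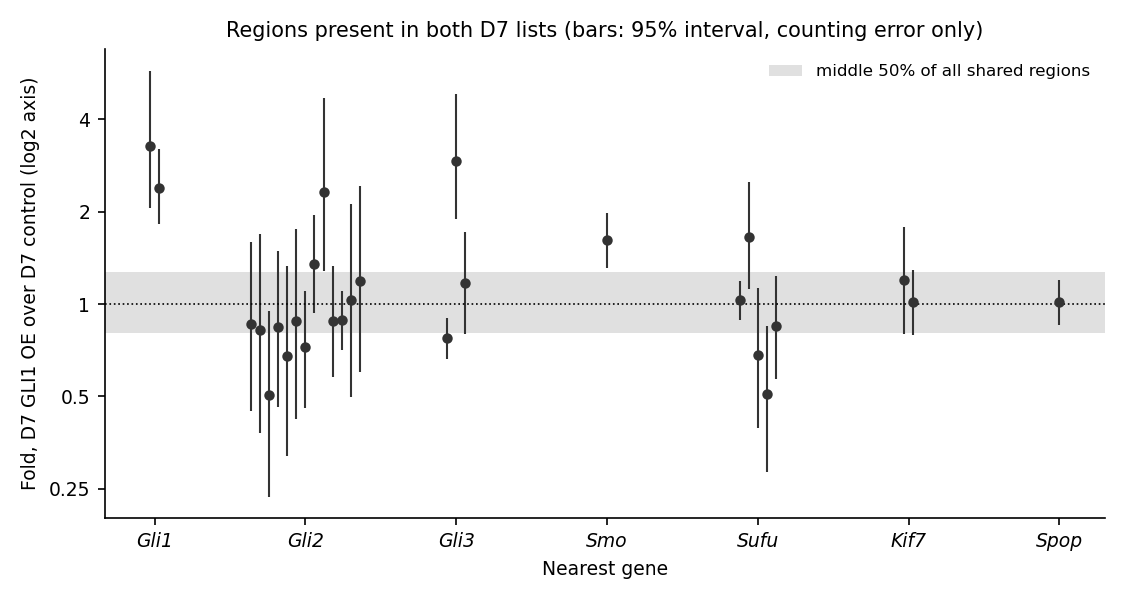
Ratio of fold, D7 GLI1 OE over D7 control (vertical axis, log2 scale), for each of the 27 regions shared by both lists, grouped by nearest gene; bars are 95% intervals for counting error only, and the grey band is the middle 50% of all 26277 shared regions, 0.807 to 1.28. Gli1 has 2 points above 2, at 3.28 and 2.40, and Gli2 and Gli3 have 1 each, at 2.32 and 2.93.

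Smo, on chromosome 6 from 29735497 to 29761366, encodes the protein that passes the signal inward. Its promoter, the first sequence printed above, had a fold of 44.6 in GLI1 OE cells (253 reads) and 27.5 in D7 control cells (152 reads), a ratio of 1.62 (1.31 to 1.99). The median ratio over 11460 promoter windows with a peak in both lists was 1.11, and 6.13% of them were at or above the Smo ratio. The difference was at the main summit: a second summit 0.797 kb into the gene had folds of 8.78 and 8.82 in GLI1 OE and D7 control cells. The 2 gained regions at 29737448 and 29758537 were weak, with folds of 3.51 and 3.69.

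Sufu, on chromosome 19 from 46396896 to 46488804, restrains the Gli proteins. Its promoter fold was 65.6 in GLI1 OE cells (373 reads) and 63.5 in D7 control cells (352 reads), a ratio of 1.03 (0.886 to 1.19). Of the 4 matched summits inside the gene, 1 had a ratio whose interval did not include 1. This site, 25.8 kb in, had folds of 12.8 and 7.74 in GLI1 OE and D7 control cells, a ratio of 1.66 (1.12 to 2.49). The region at 46452631 had folds of 4.04 and 7.92 in GLI1 OE and D7 control cells, but where summits 5 bases apart were set against each other the folds were 4.04 and 4.50, a ratio of 0.897 (0.475 to 1.66). The 4 gained regions had folds of 3.69 to 7.20 and the 2 lost ones 4.32 and 4.50.

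Kif7, on chromosome 7 from 79698098 to 79715772, and Spop, on chromosome 11 from 95414083 to 95493410, had no gained or lost region. At the Kif7 promoter the fold was 25.3 in GLI1 OE cells (143 reads) and 24.8 in D7 control cells (137 reads), a ratio of 1.02 (0.795 to 1.29). Its other region, at 79709958, had folds of 10.5 and 8.82 in GLI1 OE and D7 control cells, a ratio of 1.19 (0.801 to 1.78). The Spop promoter region had folds of 49.9 and 49.0 in GLI1 OE and D7 control cells (283 and 271 reads), a ratio of 1.02 (0.854 to 1.20). A second Spop summit, 0.282 kb into the gene, had folds of 19.7 and 26.5 in GLI1 OE and D7 control cells, a ratio of 0.743 (0.571 to 0.9502).

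The 6 promoters can be read together against all promoters, whose median ratio of 1.11 had a central 95% range of 0.7002 to 1.89. The Smo ratio stood at percentile 93.9 and the Gli3 ratio at percentile 4.84, so both lay inside that range and near its ends. Gli2 was at percentile 12.8, and Sufu, Spop and Kif7 were at 35.8, 33.2 and 33.0. All 6 promoters were also open at D5, with folds of 4.99 to 10.2 for the strongest peak overlapping each window. Of all windows, 50.8% had a peak in all 3 lists. With positions counted from the gene start and negative before it, the summits of Gli2, Smo, Sufu and Kif7 lay between −127 and 47 bases in both D7 lists. Gli3 had its summit at −506 bases in GLI1 OE cells and −521 in D7 control cells, and Spop at 635 and 662.

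**Figure D5:**
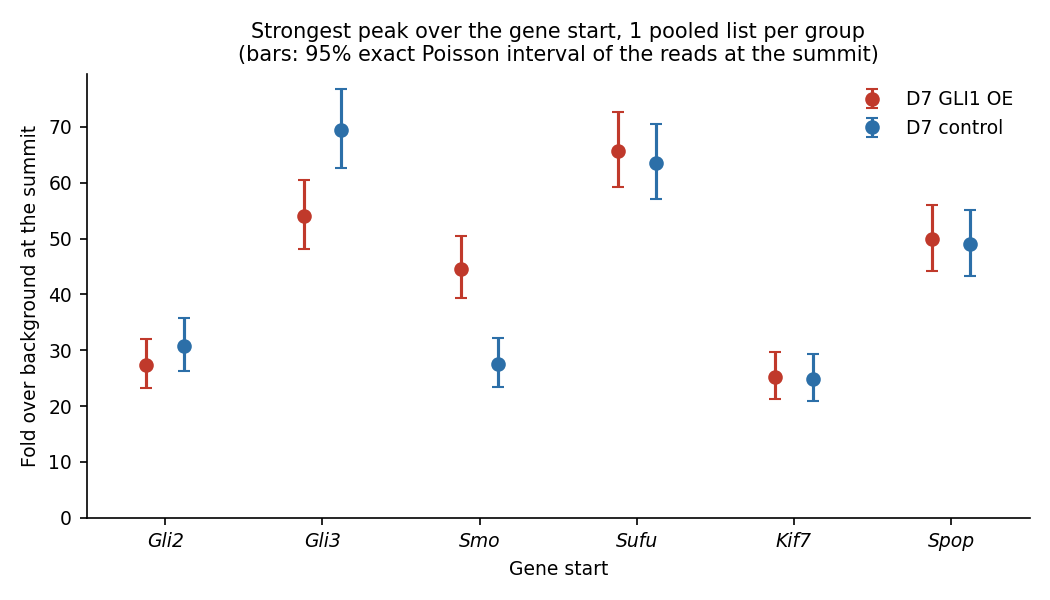
Fold over background of the strongest peak overlapping each promoter window (vertical axis) for the 6 genes with a window (horizontal axis), D7 GLI1 OE left of D7 control, with 95% intervals for counting error only. Smo stands higher in D7 GLI1 OE (44.6 against 27.5) and Gli3 lower (54.1 against 69.5), while the intervals of the 4 other pairs overlap.

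The untreated D7 control culture was then compared with the D5 control culture, which covers the same 2 days of culture without doxycycline. A D7 control region with no D5 region is called opened, and a D5 region with no D7 control region is called closed. The D5 list has peaks down to 124 bases and a fold of 1.42, against 200 bases and 2.52 in the D7 control list. It pools 2 libraries against 3. An opened or closed region may therefore come from peak calling or depth, and their part here and below was not tested. The 7 genes had 15 opened of 35 regions (42.9%, 26.3 to 60.6%), against 55.0% of all D7 control regions. They had 16 closed of 37 (43.2%, 27.1 to 60.5%), against 50% of all D5 regions. Both backgrounds are within the intervals. The opened count was 8 with equal list lengths and 41 with single peaks, and the closed count was 9 with the nearest gene start. No share over all genes is given for these alternatives.

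Gli3 carried most of the closing. It had 3 opened regions among its 7 D7 control regions and 12 closed among its 16 D5 regions, while the other 6 genes had 4 closed of 21. Over all genes 55.0% of D7 control regions were opened and 50% of D5 regions closed. The Gli3 balance of opened over closed regions was −9, but −5 within 25 kb and −4 with the nearest gene start. The closed Gli3 regions had D5 folds of 4.46 to 11.2 with a median of 7.48, against 5.09 for closed regions of all genes. Of the 12, 7 lay inside the gene and 5 outside, and the strongest, with folds of 11.1 and 11.2, lay 64.8 and 36.6 kb before it. The GLI1 OE list held 5 of the 16 D5 regions and the D7 control list 4; the region at 15602617 was the difference.

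Elsewhere the D5 regions were mostly kept. Gli1 had 1 opened and 0 closed regions, Sufu 5 and 1, and Gli2 6 and 3, while Smo, Kif7 and Spop had none of either. The closed Gli2 regions at 119004088, 119071206 and 118776620 had D5 folds of 10.4, 8.74 and 5.39. The Gli2 balance of 3 more opened than closed became −3 when the lists were cut to equal lengths by their strongest peaks. Of the 10 Gli2 regions at D5, the GLI1 OE list held 5 and the D7 control list 7.

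The limit of 100 kb bore on Gli2 and Gli3 only. The farthest regions inside it were 74.3 kb from Gli2 (fold 5.44) and 73.7 kb from Gli3 (fold 2.98), both in the D7 GLI1 OE list. Just outside it were regions 116 kb from Gli3 in the D5 list (fold 7.24) and 120 kb from Gli3 in the D7 control list (fold 3.78). In all, 3, 7 and 2 regions of the D7 GLI1 OE, D7 control and D5 control lists lay beyond the limit.

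The rest of the pathway was described with 50 other Hedgehog genes, listed with earlier results of these data known. They held 78 gained regions of 176 (44.3%) and 45 lost of 148 (30.4%), near the backgrounds of 39.0% and 31.6% for all genes. By role, 8 known target genes had 29 gained of 56 regions (51.8%) and 5 lost of 34 (14.7%). The 9 genes of ligand release and reception had 26 of 52 (50%) and 22 of 49 (44.9%). The 14 Gli kinase and turnover genes had 16 of 44 (36.4%) and 10 of 38 (26.3%). The 16 genes of the cilium and SMO partners had 5 of 20 (25%) and 6 of 23 (26.1%). The 3 ligand genes had 2 of 4 and 2 of 4. The 10 genes with the largest balance of gained over lost regions, in either direction, fall on both sides. More were gained than lost at Foxa2, a floor plate and endoderm transcription factor (11 and 0), Hhip, a Hedgehog-binding antagonist (8 and 1), Foxf1, a mesoderm transcription factor (6 and 0), Ptch1, the receptor (8 and 3), Nkx2-2, a ventral neural transcription factor (6 and 1), Lrp2, an endocytic receptor (3 and 0), and Dzip1, a basal body protein (3 and 0). More were lost than gained at Gas1, a co-receptor (0 and 5), Disp1, which releases the ligand (0 and 4), and Prkacb, a catalytic subunit of protein kinase A (0 and 3).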

How the data were processed

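Peak lists from ATAC-seq of 8 libraries in 3 groups were analysed, 1 pooled list per group. MACS2 2.1.1, Picard, Bowtie2 2.3.2 and SAMtools 1.5 were used on build mm10, per the submitters' processing notes, which give no roles here. The D7 lists had blacklisted and mitochondrial regions removed, per the names of the deposited files. The deposited lists give each peak the authors' fold enrichment, a ratio, the authors' −log10 p and −log10 q, the authors' score and the offset of the summit, in bases. Read depth per library is not given in the sources used here.

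Peaks of a list that overlapped were joined into regions. Each region went to the nearest of 21027 RefSeq protein-coding genes with a curated transcript (GRCm38.p6), within 100 kb of its strongest summit. Regions sharing 1 base counted as overlapping. Reads over a summit were recovered from the fold steps in the D7 lists (every fold within 7.67e-05 of a step of a whole number), and intervals are exact 95% intervals (Clopper-Pearson for shares). The deposited −log10 p values fitted Poisson counts of these reads. The 7 genes, the other gene lists and the thresholds were chosen with earlier results of these data known. The named pathway genes are the 10 with the largest balance of gained and lost regions. Alternatives changed the window, the −log10 q minimum, list lengths, the overlap, joining and the gene anchor. Placing Gli1 peaks against exons was planned and not run, because no exon annotation was used here. Python 3.11.15, pandas 2.3.3, numpy 2.4.6 and scipy 1.17.1 were used, and the steps were tested on simulated data.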

Additional observations from a re-analysis of the deposited data

How the results depend on the processing

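No paired analysis was possible because the libraries of a group were deposited as 1 pooled list, and for that reason no replicate could be left out. At the 7 genes 20 to 26 regions were gained and 5 to 8 lost within 25 kb, with a −log10 q of at least 5, with equal list lengths and with a 50% overlap; over all genes gained regions outnumbered lost ones under these settings too, for example 35.0% gained and 33.6% lost with equal list lengths. With the nearest gene start the counts were 10 gained, 3 lost and 9 closed, and with single peaks they were 38 gained, 15 lost and 41 opened, with 6 shared peaks at least 2 times higher and 9 at least 2 times lower in GLI1 OE, against 4 and 0 regions. In the single-peak setting each GLI1 OE peak was set against the strongest control peak over its summit, not against a matched summit. Over all genes 39.0% were gained and 31.6% lost with the nearest gene start, and 35.3% and 28.8% with single peaks. The counts at the 7 genes under these 2 settings are given without shares. With equal list lengths 8 regions were opened, and the Gli2 balance of opened over closed was −3, against 3. Without Gli1, an alternative chosen after seeing the data, 2 shared regions were at least 2 times higher. For the 50 other pathway genes, 55 were gained and 32 lost within 25 kb. The count of motif matches was 0 in either form. The lists do not show depth per library, so a region missing from a list may lie just under its threshold of 13 reads. Placing Gli1 peaks against exons was not run.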
